A study of Rattus norvegicus with 8 samples.

Results

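The miR-15 and miR-16 family comprised the rows of the miRNA count table named rno-miR-15b, rno-miR-16, rno-miR-195 and rno-miR-497 (written below without the prefix for the rat), with or without the star that marks the opposite arm of a hairpin. The rule used the names of the rows and no measured value. The rule matched 8 of the 620 miRNAs listed, namely 4 main arms and 4 opposite arms. It also covered miR-15a, but no listed row had that name. Small RNA was sequenced from the kidneys of 8 male Big Blue rats, a transgenic Fisher 344 strain made for scoring mutations. The labels give their age as 6 weeks, which cannot be the age at sampling, since dosing ran over 12 weeks. The groups were compared to find miRNAs that differ in the kidney after AA. The AA-treated group of 4 rats (AA1 to AA4) received aristolochic acid (AA), a plant nephrotoxin and kidney carcinogen, as its sodium salt at 10 mg/kg by gavage (4 ml/kg), 5 times weekly over 12 weeks. The AA was 96% pure, with 40% AAI and 56% AAII. The control group of 4 rats (CTL1 to CTL4) received 0.9% sodium chloride on that schedule. Each library came from the kidney tissue of 1 rat as a whole, so that fewer cells of a type and less RNA per cell cannot be told apart in any result.

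miRNAs of this family bind mRNAs mainly through the seed, bases 2 to 8 of the main arm, which the members share. They are best known as brakes on the cell cycle and on survival, since their targets include cyclin D and cyclin E mRNAs, the kinase mRNAs CDK6, CHEK1 and WEE1, and the anti-apoptotic BCL2 mRNA. Each hairpin is cut into a duplex, the main arm (here the 5p arm) is kept in Argonaute, and the opposite arm (3p, written with a star in the table) is mostly degraded. In mammals, the hairpins are transcribed in pairs. miR-15b and miR-16 lie in the gene of the condensin subunit SMC4, miR-195 and miR-497 form a separate cluster, and another cluster encodes miR-15a with a copy of miR-16 that has the same main arm.

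The main arms are shown first because the shared seed defines the family. The count table carries names without sequences, so the sequences were taken from RefSeq (rat assembly GRCr8) by name, with an unmarked name read as the 5p arm and a starred name as the 3p arm, and all 8 members were matched. Capitals mark the seed.
miR-16 (5p): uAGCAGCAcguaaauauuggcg
miR-15b (5p): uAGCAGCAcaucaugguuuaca
miR-195 (5p): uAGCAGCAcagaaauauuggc
miR-497 (5p): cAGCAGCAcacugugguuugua
In the RefSeq set of 724 mature rat miRNAs, the seed AGCAGCA was carried by 5, namely these 4 and miR-322-5p. The sequences lie at chr2:155555343-155555364 (miR-16), chr2:155555197-155555218 (miR-15b), chr10:55450509-55450529 (miR-195) and chr10:55450172-55450193 (miR-497), all on the plus strand. The hairpins of miR-15b and miR-16 are 51 bases apart, within the bounds of Smc4. Those of miR-497 and miR-195 are 255 bases apart and overlap no other gene of the RefSeq table. miR-16 and miR-195 are the most alike. Over the 21 bases of miR-195 they differ by G10A and U11G, with the base of miR-16 first and positions counted from 1 at the 5′ end. miR-15b and miR-195 have the same first 10 bases. How reads that match several miRNAs were counted is not given in the sources used here, and exchange of reads between these members was not tested.

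The opposite arms are shown because the only changes that passed the test were in this set. They do not carry the family seed, and each of the 4 seeds occurred once in the RefSeq set.
miR-15b* (3p): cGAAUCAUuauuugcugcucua
miR-16* (3p): aCCAAUAUuauugugcugcuu
miR-195* (3p): cCAAUAUUggcugugcugcucca
miR-497* (3p): cCAAACCAcacugugguguuaga
Compared position by position over 21 bases, miR-16* and miR-195* differ at 9, against 2 for the main arms of the same hairpins.

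The libraries held 13412373 to 15616670 reads on known miRNAs, and the level of a miRNA is given as CPM (reads of that miRNA per 1e+06 reads of the library, after TMM scaling), with group means ± SD (n = 4). The 4 nephron markers were miR-30a, miR-192, miR-194 and miR-204. Their summed CPM was 138640 to 207280 in the control libraries and 104263 to 153574 in the AA-treated libraries. Most of this sum was miR-30a and miR-192, which were not called (log2 fold changes of -0.17 and -0.79). The other 2, miR-194 and miR-204, were called lower, and the median log2 fold change of the 4 was -0.76. One label field names the tissue as liver. The liver marker miR-122 was at 0.70 to 523 CPM over the 8 libraries, with 523 CPM in AA2 and 53.0 in CTL1 and at most 5.89 in the others. A miRNA was tested where 4 or more libraries held 10 or more of its reads, which left 367, and it was called at a Benjamini-Hochberg adjusted p under 0.05 in the quasi-likelihood test of edgeR. Of these 367, 16.3% were called, 10.4% higher and 5.99% lower in the AA-treated group, and the median log2 fold change was 0.06. The groups did not overlap for 24.3%, that is for 14.4% with all AA-treated rats above all control rats and for 9.81% with all of them below.

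The seed-bearing main arms of the family showed no called change after AA, whereas the opposite arms of miR-15b and miR-16 were about doubled. Of the 8 members, 7 passed the filter on reads, and 2 were called higher and 0 lower in edgeR. Over all tested miRNAs, the shares were 10.4% higher and 5.99% lower. The 2 called were miR-15b* and miR-16*, and both come from the Smc4 cluster. The same 2 of 7 was found with the DESeq2 Wald test, which called 76 of the 367 miRNAs, 44 of them higher. Over all 16 alternative fits, miR-15b* kept its call in 16, but miR-16* in only 6. The median log2 fold change of the 7 was 0.14, and 6 of them were positive. All AA-treated rats lay above all control rats for 3 members, miR-15b, miR-15b* and miR-16*.

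**Figure D1:**
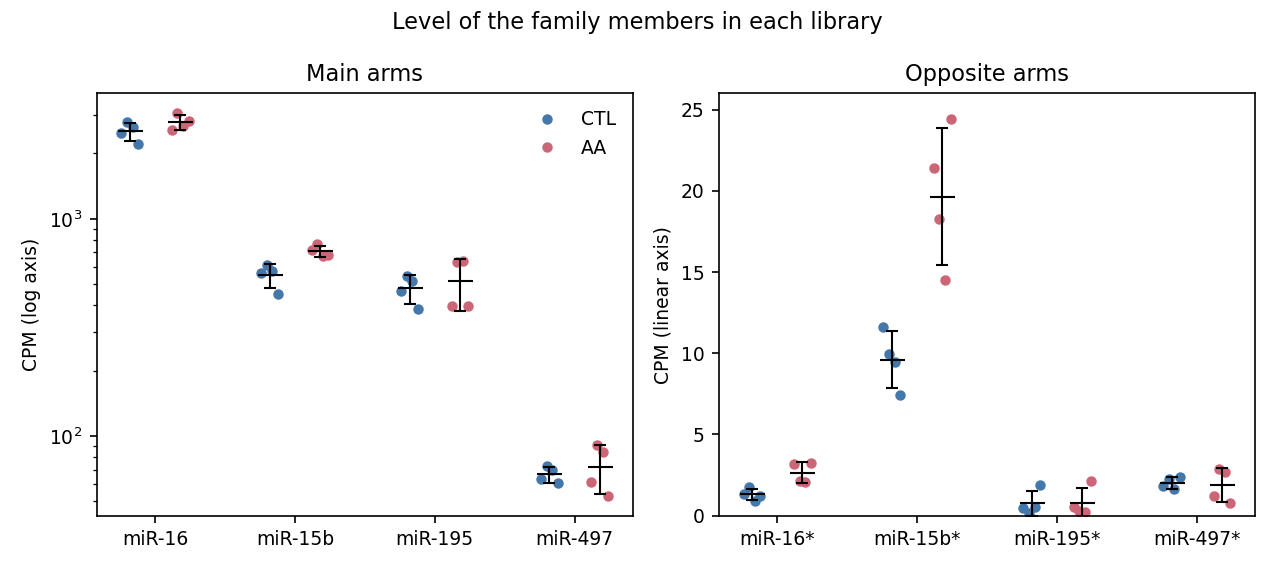
Level in CPM of the 4 main arms (left, log axis) and the 4 opposite arms (right, linear axis) in each of the 4 control (CTL, blue) and 4 AA-treated (AA, red) libraries. Black lines give the group mean and SD, cut at 0. The groups are separate for miR-15b, miR-15b* and miR-16*, while the AA-treated libraries of miR-195 and miR-497 spread more widely than the control libraries.

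miR-16 was the most abundant member and ranked 30 of the 620 miRNAs by mean CPM. It was at 2486, 2777, 2642 and 2202 CPM in CTL1 to CTL4 and at 2564, 3081, 2684 and 2832 in AA1 to AA4. The groups overlapped, with CTL2 above AA1 and AA3, and with AA2 as the highest library. The group means were 2527 ± 247 and 2790 ± 223 CPM, a log2 fold change of 0.14 (95% interval -0.16 to 0.45, adjusted p = 0.49 from edgeR). The interval leaves room for a rise of up to 0.45 on the log2 scale, so that this p does not show equal levels.

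miR-15b, the cluster partner of miR-16, was at 564, 613, 574 and 452 CPM in the control libraries and at 719, 766, 674 and 683 CPM in the AA-treated libraries. Each AA-treated rat was above each control rat, with the lowest control value in CTL4. The log2 fold change was 0.37 (95% interval 0.03 to 0.70), with an unadjusted p of 0.034 and an adjusted p of 0.13 from edgeR, so that it did not pass the threshold. Scaling by total counts moved the median of all tested miRNAs to 0.27 and the log2 fold change of miR-15b to 0.57, with an adjusted p of 0.054.

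The main arms of the other cluster varied more among the treated rats than between the groups. miR-195 was at 465, 545, 519 and 382 CPM in the control libraries and at 396, 635, 639 and 395 CPM in the AA-treated libraries. AA2 and AA3 were the highest of the 8 libraries, while AA1 and AA4 were below 3 of the 4 control libraries. The log2 fold change was 0.11 (95% interval -0.37 to 0.59, adjusted p = 0.73 from edgeR), and its sign changed without AA2 (-0.075) and without AA3 (-0.0043). miR-497 was at 63.1, 72.6, 69.5 and 60.5 CPM in the control libraries and at 61.1, 90.7, 84.2 and 52.6 CPM in the AA-treated libraries. Here too AA2 and AA3 were above all other libraries, and AA4 was below all control libraries. The log2 fold change of miR-497 was 0.12 (95% interval -0.36 to 0.60, adjusted p = 0.72 from edgeR), and without AA2 it was -0.079. AA2 is also the library with the most miR-122 (523 CPM), while AA3 had 2.96 CPM and CTL1 had 53.0 CPM. Any link of miR-122 to the values of miR-195 and miR-497 was not tested.

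In the order of the main arms, miR-16 and miR-497 stood apart from the rest, while miR-15b and miR-195 overlapped in their ranges. Within a library, miR-16 was 3.57 to 4.87 times as abundant as miR-15b. miR-15b was 1.06 to 1.82 times as abundant as miR-195 and above it in 8 of 8 libraries. miR-195 was 6.32 to 7.58 times as abundant as miR-497. Ligation preferences of the adaptors differ between miRNA sequences and were not corrected in the counts, so that these ratios compare reads and not molecules. The 8 members together took a share of 0.340% ± 0.054 of all reads in control rats and 0.446% ± 0.081 in AA-treated rats. With the 3 most abundant miRNAs taken out of the total, the shares were 0.791% ± 0.125 and 0.842% ± 0.157. Within the family, miR-16 took 65.4% to 70.9% of the reads of a library, and the 4 main arms together took 99.2% to 99.7%.

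miR-15b* gave the clearest difference of the family. Its level was 11.6, 9.93, 9.49 and 7.41 CPM in the control libraries and 21.4, 18.3, 14.5 and 24.4 CPM in the AA-treated libraries, from 91 to 155 and from 211 to 412 reads. All AA-treated rats were above all control rats, and AA4 and AA1 were the highest. The group means were 9.61 ± 1.73 and 19.7 ± 4.24 CPM, with a log2 fold change of 1.03 ± 0.23 (standard error) and an adjusted p of 0.013 in edgeR. Over all 16 alternative fits the call stayed, with log2 fold changes from 0.76 to 1.24 and adjusted p-values from 0.00049 to 0.042.

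miR-16* was rare, with 15 to 24 reads in the control libraries and 30 to 55 in the AA-treated libraries. Its level was 1.35, 1.77, 0.93 and 1.22 CPM in the control libraries and 3.17, 2.12, 2.06 and 3.26 CPM in the AA-treated libraries. The groups did not overlap, and AA1 and AA4 were again the highest. This gave a log2 fold change of 1.01 ± 0.30 (standard error) and an adjusted p of 0.042 in edgeR. When 1 library was left out at a time, the call held without AA3 and was lost for each of the other 7 libraries, with adjusted p-values up to 0.15 and a lowest log2 fold change of 0.75.

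The opposite arms of the other cluster did not pass the test. miR-497* was at 1.80, 2.28, 1.61 and 2.36 CPM in the control libraries and at 1.24, 2.88, 2.68 and 0.77 CPM in the AA-treated libraries, from 13 to 53 reads. As for its main arm, AA2 and AA3 were the highest and AA4 was the lowest. The log2 fold change was -0.08 (95% interval -0.98 to 0.82, adjusted p = 0.90 from edgeR), and its sign changed with total counts (0.16). miR-195* had 6, 2, 9 and 23 reads in the control libraries and 7, 5, 3 and 36 in the AA-treated libraries, with 10 or more in CTL4 and AA4 alone. It was below the filter and was not tested.

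The balance between the arms of a hairpin does not depend on the scaling between libraries, because both arms are read in the same library. The opposite arm of mir-15b was at 2.06%, 1.62%, 1.65% and 1.64% of the main-arm reads in the control libraries and at 2.98%, 2.39%, 2.15% and 3.57% in the AA-treated libraries. Every AA-treated library was above every control library, and the mean log2 ratio was 0.65 higher. For mir-16 the values were 0.054%, 0.064%, 0.035% and 0.055% in the control libraries and 0.124%, 0.069%, 0.077% and 0.115% in the AA-treated libraries. These groups were also separate, with a mean log2 ratio that was 0.85 higher. Main-arm reads from any copy of miR-16 in a miR-15a cluster of the rat could not be told apart from those of this hairpin. They would be part of the denominator. For both hairpins the exact permutation test gave p = 0.0286 (two-sided), the smallest that 4 against 4 rats allow. Its adjusted p was 0.0571 over the 6 ratios compared, which is above the threshold. An adjusted p under the threshold would have needed most of the 6 ratios at this smallest p. The adjusted p therefore cannot decide on a single ratio. The opposite arm of mir-497 was at 2.32% to 3.90% in the control rats and at 1.46% to 3.19% after AA (exact permutation test, two-sided, p = 0.314, adjusted p = 0.471). For mir-195 the percentages ran from 0.027% to 0.540% over the 8 libraries, with CTL4 and AA4 as the highest, and no test was made. Although they are encoded side by side, mir-15b and mir-16 had very different amounts of the opposite arm, at 1.74% ± 0.213 and 0.052% ± 0.012 of the main arm in the control group.

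**Figure D2:**
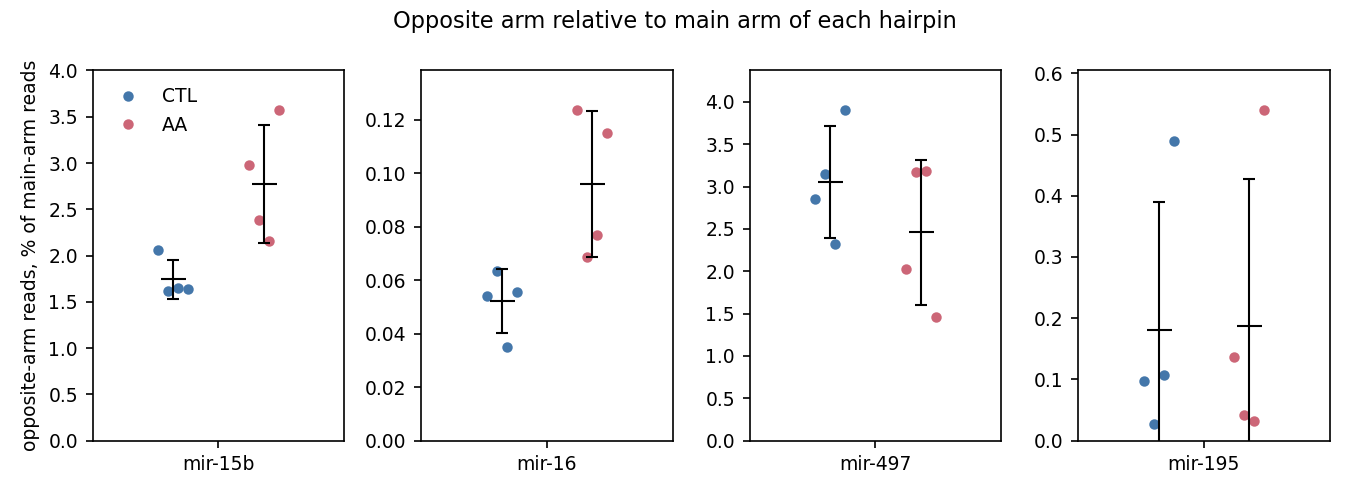
Reads of the opposite arm in percent of the reads of the main arm, for each hairpin and library (CTL, blue; AA, red), with the group mean and SD in black, cut at 0. Each panel has its own linear axis from 0. The AA-treated libraries are above the control libraries for mir-15b and mir-16, and the groups overlap for mir-497 and mir-195.

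Members of a cluster were also compared directly, by their ratio in each library. The ratio of miR-16 to miR-15b was lower in each of the 4 AA-treated libraries (356.6% to 414.4%) than in each of the 4 control libraries (441.2% to 486.7%). The difference in mean log2 ratio was -0.23 (exact permutation test, two-sided, p = 0.0286, adjusted p = 0.0571 over 6 ratios), and the adjusted p is above the threshold. As for the arms, this adjusted p cannot decide on a single ratio. The ratio of miR-497 to miR-195 stayed at 14.0% ± 1.21 in the control rats and 14.1% ± 1.05 after AA. Its log2 difference of 0.004 was smaller than the SD of 0.12 in the control rats and 0.11 after AA (exact permutation test, two-sided, p = 0.971, adjusted p = 0.971). The summed reads of miR-195 and miR-497 against those of miR-15b and miR-16 were at 16.7% to 18.3% in the control rats and at 12.7% to 21.5% after AA. The groups overlapped (exact permutation test, two-sided, p = 0.543, adjusted p = 0.651), and the SD of the log2 ratio was 0.06 in the control rats and 0.36 after AA.

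How closely the members followed each other was described by the root mean square (RMS) difference of their log2 CPM, each centred on its mean over the 8 libraries. miR-195 and miR-497 differed by 0.098, and each was the nearest of the 366 other tested miRNAs to its partner. miR-15b and miR-16 differed by 0.134, miR-16 ranked 4 among the miRNAs nearest to miR-15b, and miR-15b ranked 6 among those nearest to miR-16. Outside the family, the nearest to miR-15b were miR-582* (0.112), miR-505 (0.124) and miR-145 (0.129). The nearest to miR-16 were miR-143* (0.120), miR-145 (0.122) and miR-22 (0.123). For miR-195 they were miR-33* (0.106), miR-29b (0.123) and miR-301a (0.148), and for miR-497 they were miR-30b-5p (0.128), miR-29c (0.131) and miR-33* (0.132). The median difference over all tested miRNAs outside the family was 0.43 to 0.52. The values share 8 libraries and their scaling and are a description.

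**Figure D3:**
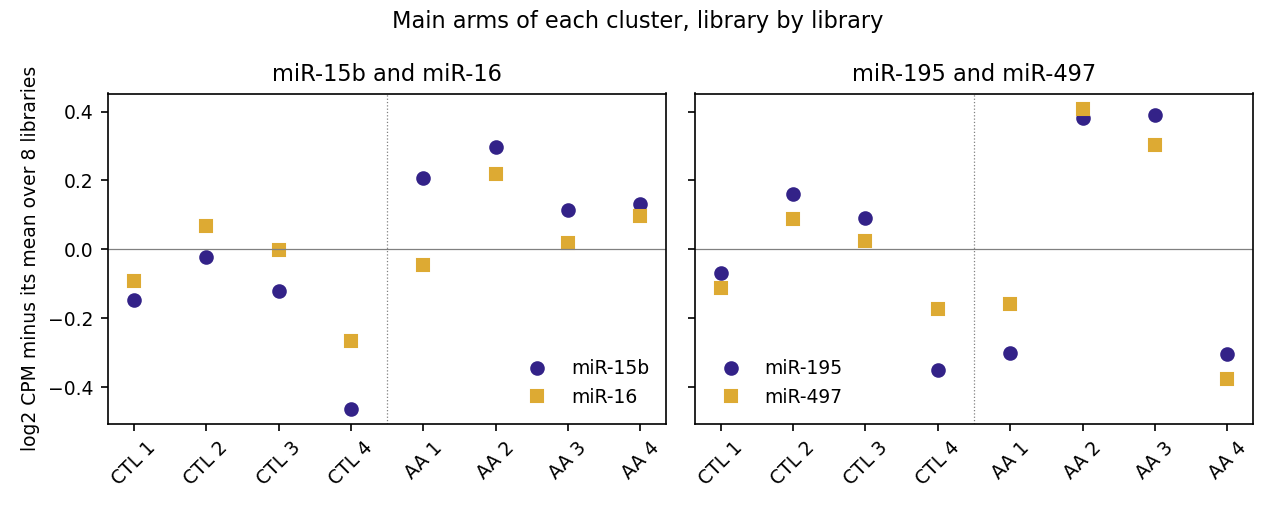
log2 CPM of the main arms of the cluster of miR-15b and miR-16 (left) and the cluster of miR-195 and miR-497 (right) in each library, less the mean of that miRNA over the 8 libraries. miR-195 and miR-497 lie close together in each library and are highest in AA2 and AA3, while the 4 AA-treated values of miR-15b are above its 4 control values.

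Outside the family, the same or a near seed is carried by miR-322-5p and miR-503-5p, which are encoded together on the X chromosome. The rows named miR-322 and miR-503 were called higher in the AA-treated group. miR-322 is the rodent counterpart of human miR-424, and miR-503 has the seed AGCAGCG. Their sequences are given for comparison with those of the family.
miR-322-5p: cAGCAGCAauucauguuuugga
miR-322-3p: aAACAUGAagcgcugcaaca
miR-503-5p: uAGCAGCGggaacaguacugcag
These lie on the minus strand of GRCr8 at chrX:137726198-137726219, chrX:137726162-137726181 and chrX:137725899-137725921, in hairpins that are 220 bases apart. Of the 5 rows named miR-322 or miR-503, all tested, 2 were called higher and 0 lower, and 3 had positive fold changes. Over all tested miRNAs, 10.4% were called higher and 5.99% lower. No row was named miR-424. The row miR-503 was at 88.6, 99.7, 82.1 and 80.2 CPM in the control libraries and at 414, 180, 83.7 and 303 CPM in the AA-treated libraries. AA3 lay within the control range, and edgeR gave a log2 fold change of 1.48 ± 0.40 (standard error) with an adjusted p of 0.031. When 1 library was left out at a time, this call was lost for 6 libraries, the 4 control libraries, AA1 and AA4, with a lowest value of 0.97. The row miR-322 was at 234, 234, 238 and 183 CPM in the control libraries and at 439, 416, 276 and 526 CPM in the AA-treated libraries, without overlap. edgeR gave a log2 fold change of 0.90 ± 0.21 (standard error) with an adjusted p of 0.017, and the call was lost without CTL3, AA1 or AA4, with a lowest value of 0.66. The table does not say which arm of mir-322 the row miR-322 counts, and it lists 2 further rows, miR-322* and mir-322*, that differ in letter case only. Their log2 fold changes were -0.36 and -0.23 (adjusted p = 0.30 and 0.51 from edgeR). miR-503* was at 9.14 ± 2.04 and 15.4 ± 5.43 CPM, a log2 fold change of 0.75 (adjusted p = 0.11 from edgeR).

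**Figure D4:**
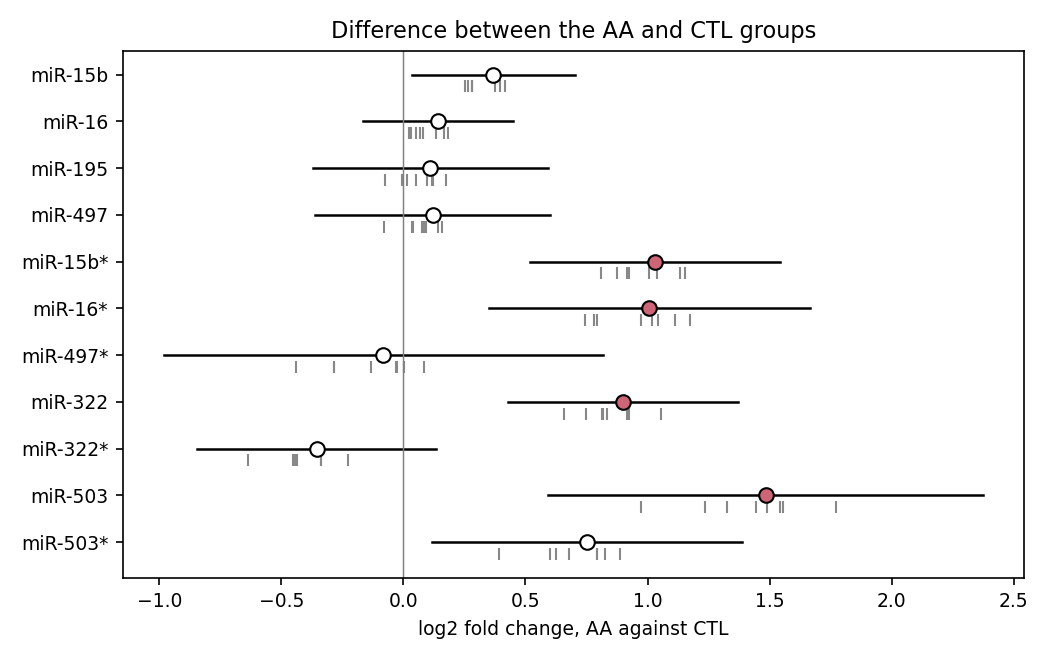
log2 fold change of AA-treated against control rats for the 7 tested members and for the rows named miR-322, miR-322*, miR-503 and miR-503*, from edgeR. Circles give the estimate, filled where the adjusted p was under 0.05, black lines the 95% interval, and grey ticks the 8 fits with 1 library removed. The filled circles are miR-15b*, miR-16*, miR-322 and miR-503, and the 4 main arms of the family lie between 0.11 and 0.37.

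Other miRNAs with a known part in the cell cycle were counted from lists for comparison. Of 10 miRNAs of the miR-17-92 and miR-106b-25 clusters, which promote proliferation, 9 were tested, 2 were called higher (miR-18a, log2 fold change 1.21, adjusted p = 0.012, and miR-19b, 0.63, adjusted p = 0.029, both from edgeR) and 0 lower, with a median of 0.37. Of 11 let-7, miR-98 and miR-34 miRNAs, which restrain the cell cycle through other seeds, all were tested and the median was 0.43. The called ones were 3, all higher, and were the miR-34 members, with miR-34a at 4.48. The list of main arms had a median of 0.13 with 0 of 4 called. Over all tested miRNAs the median was 0.06 and 16.3% were called, 10.4% higher and 5.99% lower. At that share, 0 of 4 called is not particular to the family.

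Blood cells are known to be rich in miR-16, and markers of these and other cells were summed beside the family. Of 5 leukocyte markers, 4 had a row and 2 of these were called higher. The summed CPM of the 4 was 914 to 1264 in the control rats and 2057 to 4121 after AA, without overlap. Most of it was miR-142-3p, at group means of 954 and 2649 CPM. All 4 had positive log2 fold changes, while the groups overlapped for miR-142-5p (0.30, adjusted p = 0.56 from edgeR). The summed CPM of the erythroid markers miR-144 and miR-451, 2 of 3 listed and 0 called, was 499 to 798 in the control rats and 158 to 564 after AA. The stromal markers miR-199a-5p, miR-199a-3p and miR-214, of which 1 was called higher, summed to 468 to 526 and 536 to 994 CPM. The endothelial markers miR-126 and miR-126* summed to 8118 to 10934 and 6178 to 9455 CPM. The smooth muscle markers miR-143 and miR-145 summed to 177042 to 237320 and 142528 to 183820 CPM, with 0 called in either list. Nearly all of the smooth muscle sum was miR-143, with a log2 fold change of -0.36. miR-145 went the other way (0.27), at group means of 566 and 682 CPM. For comparison, 16.3% of all tested miRNAs were called. No marker in the table was at 0 in all libraries. The part of these cells in the levels of miR-15b, miR-15b* and miR-16* was not tested.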

How the data were processed

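Kidney small RNA of 4 AA-treated and 4 control rats was read on a Genome Analyzer II (Illumina). The deposited counts are raw read numbers for rat miRNAs of miRBase, which the authors obtained with miRanalyzer and Bowtie and did not normalize. DESeq is named in the submitters' processing notes without a role. Column titles gave group and number.

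The model across miRNAs was fitted in edgeR 4.0.16 under R 4.3.3 (glmQLFit, glmQLFTest, TMM, Benjamini-Hochberg adjustment over all 367 miRNAs tested). The standard error is the log2 fold change divided by the square root of F. CPM are reads per TMM-scaled library. Ratios within a library used log2 with a pseudocount of 0.5 and the exact permutation test. Centred log2 CPM used a prior count of 2. The edgeR step was tested on simulated data with changes larger than that of any member, which does not speak for changes of their size. Libraries of a group differed by at least 394 in chi-square per degree of freedom. Each p-value tests a difference between the groups, with the rat as the unit (n = 4 per group in the main fits).

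All members were named, with miR-322, miR-424 and miR-503, the 3 nearest miRNAs to each main arm, and members of the lists. Members and lists were chosen with earlier results of these data known. Alternatives were DESeq2 1.42.0 size factors, total counts, the DESeq2 Wald test, 2 other filters, the library number as a block, each library left out, a pseudocount of 5, another denominator for the share of reads, and, chosen after seeing the data, the 6 libraries numbered 1 to 3 and the counts less the 3 most abundant miRNAs.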

Additional observations from a re-analysis of the deposited data

Results flagged for a closer look

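4 values lay far from the other 3 libraries of their group by Dixon's ratio, among 40 groups of 4 libraries examined, of which about 2 would stand apart by chance. miR-322 was at 183 CPM in CTL4, below the other control libraries. miR-503* was at 6.11 CPM in CTL4, also the lowest control value. The log2 ratio of miR-497 to miR-195 was -2.66 in CTL4, above the other control libraries. The log2 ratio of miR-15b* to miR-15b was -5.59 in CTL1, above the other control libraries and below the AA-treated libraries.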

How the results depend on the processing

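The count of called members was 2 with edgeR and 1 without a filter on reads, in the 6 libraries numbered 1 to 3 and after removal of the 3 most abundant miRNAs, and 1 to 2 with 1 library left out. In each case the call lost was that of miR-16*, whose log2 fold changes were then 1.00, 0.81 and 0.92, and 0.75 to 1.17 with 1 library left out. The cause was not tested, except that the second setting and the fits with 1 library left out have fewer samples. miR-15b* kept its call, and miR-15b and miR-16 kept their direction without a call, in all 16 alternatives. miR-497* changed sign with total counts (0.16) and in the 6 libraries numbered 1 to 3 (0.23), and with 1 library left out it ranged from -0.44 to 0.083 (0.0024 without CTL4, 0.083 without AA4). With 1 library left out, miR-195 ranged from -0.075 (without AA2) to 0.17, with -0.0043 without AA3, and miR-497 from -0.079 (without AA2) to 0.16. Over all miRNAs, 60 were called, 38 higher and 22 lower, and with 1 library left out 35 to 51, 24 to 33 and 10 to 21. The lowest count of 35 came without CTL2, and without CTL1 it was 37. Total counts gave 54 higher and 14 lower. The family share of reads was 0.791% in control and 0.842% in AA-treated rats when the 3 most abundant miRNAs were taken out of the total. In the 6 libraries, miR-322 (0.63) and miR-503 (1.26) were not called. miR-503* was called with total counts (0.95).

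With the library number as a replicate block, 78 miRNAs were called, and miR-15b* (1.02) and miR-16* (1.00) stayed called. Deviations of same-numbered libraries correlated at 0.05, 0.20, 0.14 and 0.35 across 367 miRNAs, and in each group 3 of 4 libraries correlated best with their own number in the other. The labels tie the numbers to nothing shared between rats and 1 of the 4 correlations was not above 0.1, so that pairing was not assumed, though these values do not exclude it. With 1 library left out, or with pairs, the exact test of a ratio cannot go below 0.0571 or 0.125, and the ratios were read for size only. The depth limits miR-16*, miR-195* and miR-497*, each under 60 reads per library.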
